A study of Mus musculus with 12 samples.

Results

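Potassium channel genes other than the inward rectifiers are described here in mouse hippocampus after 3 treatments. The members are the loci of protein-coding or mixed type whose gene name starts with Kcn, without the Kcnj genes (inward rectifiers) and without Kcne2, and with the longest locus kept for each gene. The rule gave 53 genes among 16687 listed loci in the siGSK3b table, 54 among 17394 in the L803mts table and 54 among 17864 in the ketamine table. Of the 78 protein-coding genes of this name pattern in the GENCODE M21 annotation, 57 were listed in at least 1 table and 51 in all 3. Among members not listed in every table, Kcne4 was listed in the ketamine table alone, Kcnk3 and Kcnk6 in the L803mts table alone, Kcnq1 in all but the ketamine table and Kcns1 in all but the L803mts table. No member was at 0 in any library.

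Potassium channels let potassium leave the cell and so set the resting potential, end the action potential and space the spikes of a train. Several kinds of pore-forming (alpha) subunit are found in hippocampal neurons: voltage-gated ones, ones opened by internal calcium or sodium, ones of the two-pore family that carry leak currents, and silent ones that work only when joined to a voltage-gated partner. Auxiliary subunits bind the alpha subunits and change their gating or their number at the membrane.

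The series holds 12 poly(A)-selected, directional RNA-seq libraries of hippocampus from C57BL/6 mice, 3 in each of 4 groups; age and sex are not given in the sources used here. Control mice received vehicle into the nose, 5 µL per nostril, every other day over 3 days. On the same schedule, the siGSK3b group received 10 µg of a small interfering RNA against GSK3b, a serine/threonine kinase, and the L803mts group received 60 µg of L803mts, a peptide inhibitor of GSK3. The ketamine group received 10 mg/kg of ketamine, a blocker of NMDA-type glutamate receptors, into the peritoneum, and tissue was taken at 24 h. Ketamine was compared with vehicle given into the nose, so the drug and the route cannot be told apart. Every table sets 1 treatment against the same 3 control libraries. The labels do not say whether libraries of a group came from separate mice, so the spread between mice is not known. The p-values of the linear model used below (limma) measure the spread between these libraries. Those in the authors' deposited tables come from Cuffdiff and did not always follow that spread.

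Values are FPKM, fragments scaled to transcript length and to the mapped fragments of the library, so levels can be compared between genes on a per-length scale. The read depth is unknown. The median FPKM over all listed loci lay between 8.66 and 10.2 in every library of the 3 tables. The targeted gene, Gsk3b, showed no lower level in libraries carrying the siGSK3b label. It measured 17.96, 17.3 and 17.8 FPKM in the controls and 18.4, 19.3 and 18.9 FPKM in those libraries. All 8 neuronal markers and all 8 markers of hippocampal subfields examined were measured and none was at 0. The control libraries stood apart in markers of choroid plexus epithelium: summed over 9 of the 10 markers in the siGSK3b table, control 1 had 3744 FPKM, control 2 had 222 FPKM and control 3 had 36.0 FPKM, against 3431 to 5109 FPKM in the siGSK3b libraries. The sums were 22.6 to 2304 FPKM in controls and 1474 to 2447 FPKM after L803mts, and 24.0 to 2313 FPKM in controls and 256 to 2177 FPKM after ketamine, with control 1 highest of the controls in each table. Of these markers, Aqp1 alone was listed at 0, in the 3 controls of the L803mts table. Their part in the values below was not tested, and the effect of leaving out a library is given where it changed a result.

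In the control libraries, transcripts of the calcium-activated channel Kcnma1 were the most abundant of the family per unit length. Kcnma1, whose large-conductance channel opens with voltage and internal calcium, measured 123, 132 and 135 FPKM in the controls of the siGSK3b table. At the locus kept per gene, Kcnk1, a two-pore leak subunit, followed with 81.8, 76.4 and 68.7 FPKM, without overlap with Kcnma1. The auxiliary subunit gene Kcnab2, whose product binds Kcna channels and helps to carry them to the axon, measured 47.2, 52.6 and 63.9 FPKM. Kcna6, an axonal delayed rectifier, came next with 40.6, 49.8 and 53.8 FPKM. Kcna1 of the same subfamily had 43.5, 45.0 and 44.3 FPKM. The ranges of Kcnab2, Kcna6 and Kcna1 overlapped from neighbour to neighbour, so their order is not fixed by these libraries. Ranks below Kcnma1 also depend on which locus of a gene is kept. Over control and treated libraries of the siGSK3b table, the highest of 16 Kcnip4 loci averaged 100 FPKM. The highest of 4 Kcnq3 loci averaged 69.5 FPKM, and neither of these loci was the one kept. At the other end of the kept loci, the silent subunit gene Kcng4 had the lowest mean, 1.37 ± 0.328 FPKM (SD, n = 3). The member median was 13.1 FPKM in these controls, beside 10.5 FPKM over all tested loci.

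**Figure D1:**
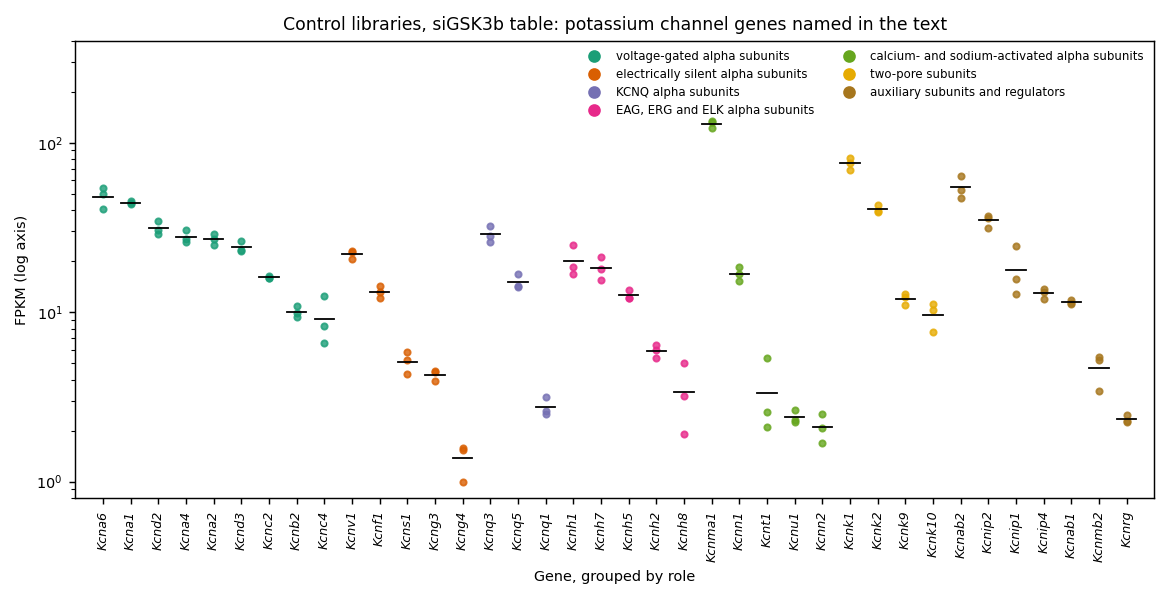
FPKM of the potassium channel genes named in the text in the 3 control libraries of the siGSK3b table, on a log axis, grouped by role; points are libraries and the bar is their mean. Kcnma1 sits above the other genes, and Kcng4 has the lowest mean at 1.37 FPKM.

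No potassium channel gene passed the authors' test after any treatment. In the authors' deposited table, 0 members had an FDR of at most 0.05 for siGSK3b, where 0.508% of all tested loci did. The authors' deposited table for L803mts likewise held 0 such members, against 0.65% of its loci, and the authors' deposited table for ketamine 0, against 0.439%. At an unadjusted p under 0.05 in the authors' deposited tables there were 3, 6 and 4 members for siGSK3b, L803mts and ketamine, where 5.6%, 7.17% and 5.97% of all tested loci met that limit. A linear model with limma on log2(FPKM + 1), adjusted over all tested loci, also called 0 members in each comparison; it called 0.00612%, 0% and 0.0114% of all tested loci, which is 1, 0 and 2 loci. Without control 1 the limma calls over all loci rose to 36 for siGSK3b and to 36 for L803mts, and without control 2 they rose to 13 for ketamine, with 0 members among them. Without any other single library they numbered 0 to 3, 0 to 2 and 1 to 5. Its unadjusted p was under 0.05 for 3, 6 and 7 members, beside 5.83%, 6.18% and 6.13% of all loci. Its smallest adjusted p among members was 0.735 for siGSK3b, 0.757 for L803mts and 0.488 for ketamine. With 3 libraries against 3, an exact permutation test of a single gene cannot give a p below 0.1.

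Of the members, 51 of 53, 50 of 54 and 49 of 54 stayed within 1.5-fold of the control mean after siGSK3b, L803mts and ketamine. The median difference in log2(FPKM + 1) over the members was -0.05 for siGSK3b, beside 0.01 for all tested loci. For L803mts it was -0.00 beside -0.02, and for ketamine -0.05 beside -0.01. The siGSK3b median was -0.10 without control 1 and -0.09 without control 3, the ketamine median was -0.08 without control 1, and the L803mts median lay between -0.06 and 0.06 when 1 library was left out. The median standard error of a single member was 0.135, 0.160 and 0.151. The 2, 4 and 5 members beyond 1.5-fold compare with a background of 7.06%, 8.3% and 7.42% of all tested loci. In the siGSK3b comparison 38 of 53 member means lay below control, where 48.2% of all tested loci did. In the L803mts comparison 26 of 54 lay below, beside 54% of all loci, and in the ketamine comparison 32 of 54, beside 53.5%.

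Some members separated the 2 groups of 3 libraries without overlap. After siGSK3b, 2 members were higher in every treated library (background 5.72%) and 6 were lower in every one (4.84%). After L803mts, 8 were higher (5.86%) and 2 lower (6.67%). After ketamine, 2 were higher (5.28%) and 8 lower (6.19%). Leaving out a library makes separation easier by construction, so each such count is given with the share of all tested loci under the same omission. The count of lower members after siGSK3b reached 16 without control 1 (10.9% of all loci), 10 without control 3 (9.80%) and 11 without siGSK3b 2 (9.72%). The L803mts count of lower members was 7 without control 1 (11.8%), 5 without control 3 (15.0%), 8 without L803mts 2 (16.0%) and 6 without L803mts 3 (10.6%). The ketamine count of lower members was 13 without control 1 (13.4%) and also without ketamine 3 (11.3%). These members are described below by role; those named only because their libraries separated were chosen after their values were seen.

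**Figure D2:**
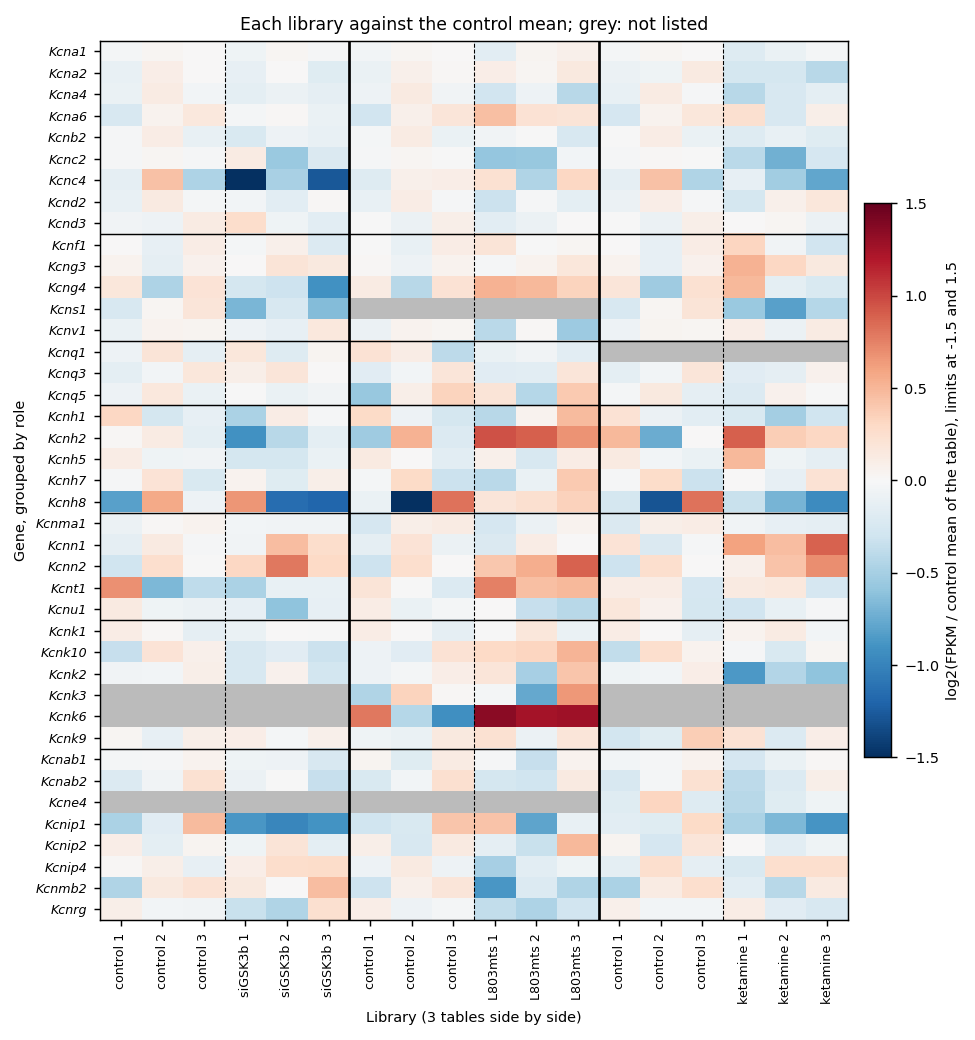
Log2 of each library's FPKM over the control mean of its table, with the genes named in the text in rows grouped by role and libraries in columns; grey marks a gene not listed in that table. Most cells are pale, and Kcnip1 is blue in the 3 siGSK3b and the 3 ketamine libraries.

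The voltage-gated alpha subunits (Kcna, Kcnb, Kcnc and Kcnd genes) numbered 12 in each table. After siGSK3b, 11 of the 12 means lay below control, where 48.2% of all tested loci did, with a median log2(FPKM + 1) difference of -0.12. In that comparison 1 member separated without overlap, downward (background 4.84%). The L803mts comparison had 6 means above and 6 below (54% below over all loci), with 2 members separated upward (5.86%) and 1 downward (6.67%). After ketamine 8 means lay below (53.5% over all loci), and 4 members, Kcnc2, Kcna2, Kcna4 and Kcnb2, were lower in every library (6.19%).

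Kcnc2 encodes a fast delayed rectifier that lets interneurons fire at high rates. Its locus was the same 1679 bp stretch of chromosome 10, from 111707089 to 111708767 on build NCBIM37, in all 3 tables, which is 0.857% of the annotated gene length. In the ketamine table it measured 16.0, 16.4 and 16.0 FPKM in the controls and 12.2, 9.75 and 13.5 FPKM after ketamine. The 3 ketamine values lay below all 3 controls, at 0.733 times the control mean, with a limma difference of -0.43 ± 0.130 (SE) and an adjusted p of 0.692. In the L803mts table the controls were 16.1, 16.7 and 16.2 FPKM and the treated libraries 11.0, 11.1 and 15.9 FPKM. The third treated library came close to the controls, the mean was 0.773 times control, and limma gave an adjusted p of 0.757. After siGSK3b the values were 17.5, 11.0 and 13.8 FPKM against 16.0, 16.4 and 16.0 FPKM and overlapped. Markers of interneurons, 8 of 8 measured, summed to 359 to 411 FPKM in the controls and 352 to 373 FPKM after ketamine, and to 293 to 332 FPKM and 306 to 357 FPKM in the L803mts table. Single markers moved in different ways. After ketamine Pvalb had 38.8, 31.4 and 30.3 FPKM against 38.3, 36.7 and 51.5 FPKM, which overlap, with an unadjusted p of 0.024 and an FDR of 0.725 in the authors' deposited table. After L803mts, 2 of the 8 markers, Slc32a1 and Lhx6, were higher in every library (5.86% of all tested loci), and the authors' deposited table called Slc32a1 with an FDR of 0.0119. None of the 8 was at 0. The part of interneuron content in the Kcnc2 values was not tested, and in bulk tissue fewer cells of a type and less RNA per cell cannot be told apart.

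Among the other voltage-gated genes, the ketamine values of Kcna2, a low-threshold axonal channel, were 26.8, 26.8 and 24.2 FPKM against 30.5, 30.9 and 35.4 FPKM. That is 0.804 times the control mean, with a limma adjusted p of 0.715. Kcna4, an A-type channel of axons, had 21.3, 23.9 and 25.6 FPKM against 26.2, 30.7 and 27.9 FPKM, and Kcnb2, a delayed rectifier, had 10.2, 10.8 and 10.3 FPKM against 11.6, 12.6 and 10.8 FPKM. The margin between the groups was narrow for both genes. The sum over 7 markers of oligodendrocytes, all measured, was also lower in the ketamine table, with 579 to 589 FPKM in the controls and 415 to 487 FPKM after ketamine. Of the 7 markers, 4 separated downward, beside 6.19% of all tested loci, and 1 had a mean above control. None of the 7 was at 0, and their part in these values was not tested.

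Kcnc4, which forms an inactivating high-threshold channel, had the lowest ratio to control of any member after siGSK3b. It measured 8.30, 12.4 and 6.62 FPKM in the controls and 2.04, 6.49 and 3.78 FPKM after siGSK3b, so the highest treated library nearly reached the lowest control. The mean was 0.451 times control, the limma difference was -1.04 ± 0.340 with an adjusted p of 0.823, and the log2 ratio ran from -1.64 to -0.83 when 1 library was left out. The locus behind these values is 260 bp long, 1.22% of the gene. At the same 260 bp in the ketamine table, Kcnc4 had 8.32, 6.32 and 5.28 FPKM against 8.28, 12.3 and 6.64 FPKM. That was 0.731 times control, and the groups overlapped. In the L803mts table, where the Kcnc4 locus is 20282 bp long, the treated mean of 6.86 ± 1.80 FPKM and the control mean of 6.54 ± 0.711 FPKM (SD, n = 3) overlapped.

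After L803mts Kcna6 separated upward. It measured 41.9, 35.8 and 35.02 FPKM against 25.1, 32.3 and 34.8 FPKM, so the nearest treated and control libraries almost touched. The mean was 1.22 times control, with a limma adjusted p of 0.757. Kcnd2 and Kcnd3, the A-type channels of dendrites, overlapped between groups in all 3 tables; Kcnd2 had 23.8, 27.2 and 24.9 FPKM in controls and 21.1, 26.6 and 28.5 FPKM after ketamine.

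Kcnip1 is an auxiliary gene whose product, a calcium-binding protein, joins the Kcnd channels and raises their surface level. Its locus spans 33529474 to 33743381 on chromosome 11 (NCBIM37) in the siGSK3b table, 58.8% of the gene length, and nearly the same stretch in the other 2. After siGSK3b it measured 9.62, 8.96 and 9.53 FPKM, against 12.7, 15.7 and 24.6 FPKM in the controls. All 3 treated libraries lay below all 3 controls and close to each other, whereas the controls spread widely. The mean was 0.53 times control, with a limma difference of -0.80 ± 0.214 and an adjusted p of 0.735; the authors' deposited table gave an unadjusted p of 0.0343 and an FDR of 0.788. Without control 3 the log2 ratio of -0.92 became -0.60. After ketamine Kcnip1 measured 22.3, 19.5 and 16.8 FPKM against 27.9, 27.4 and 38.1 FPKM, again without overlap. That mean was 0.628 times control, the limma difference was -0.64 ± 0.157 with an adjusted p of 0.601, and the log2 ratio stayed between -0.78 and -0.50 when 1 library was left out. After L803mts the values of 33.7, 14.5 and 23.2 FPKM spanned the controls of 20.4, 21.3 and 33.4 FPKM. The oligodendrocyte markers were lower after siGSK3b as well, summing to 551 to 632 FPKM against 694 to 716 FPKM in the controls. Of the 7 markers 5 separated downward, beside 4.84% of all tested loci. The neocortical markers, of which 7 of 8 were measured, summed to 97.7 to 103 FPKM against 117 to 136 FPKM, and none of either list was at 0. Of these 7 neocortical markers 3 separated downward and 1 had a mean above control. The authors' deposited table called 2 neocortical markers and 1 oligodendrocyte marker lower, where 0.508% of all tested loci were called in either direction. After ketamine 6 of the 7 neocortical means lay above control, with sums of 90.8 to 137 FPKM against 91.0 to 106 FPKM in the controls. The part of either list in the Kcnip1 values was not tested.

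Of the remaining auxiliary genes, Kcnip4, another partner of Kcnd channels, had 13.8, 15.5 and 15.7 FPKM after siGSK3b against 13.1, 13.8 and 11.9 FPKM, a narrow separation upward at 1.16 times control. It was the 1 separated locus of 16 named Kcnip4 in that table, of which 11 had higher and 5 lower means. Kcnip2, also a Kcnd partner, overlapped in all 3 tables, with control means of 34.8, 51.2 and 29.7 FPKM and treated means of 34.9, 52.8 and 28.3 FPKM for siGSK3b, L803mts and ketamine. Kcnab1, a beta subunit that speeds inactivation of Kcna channels, separated downward by little after siGSK3b, with 11.0, 10.9 and 9.66 FPKM against 11.2, 11.3 and 11.9 FPKM. Kcnrg, whose product is known from human cells to hinder channel assembly, had 1.81, 1.69 and 1.91 FPKM after L803mts against 2.50, 2.22 and 2.30 FPKM. It was 0.771 times control there, and its libraries overlapped in the other 2 tables. Kcnmb2, a beta subunit of the Kcnma1 channel, was 0.715 times control after L803mts, with 1.90, 3.01 and 2.54 FPKM against 2.81, 3.68 and 3.95 FPKM, and overlapped. Over this role, 7 of 12, 9 of 12 and 9 of 13 means lay below control after siGSK3b, L803mts and ketamine. Over all tested loci the shares were 48.2%, 54% and 53.5%.

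Silent alpha subunits form no channel alone and change the gating of Kcnb channels. Kcns1, one of these, was lower in the ketamine libraries, which had 3.46, 2.90 and 3.79 FPKM against 4.31, 5.20 and 5.82 FPKM in the controls, without overlap. The mean was 0.663 times control, with a limma adjusted p of 0.751 and, in the authors' deposited table, an unadjusted p of 0.0164 and an FDR of 0.658. After siGSK3b Kcns1 measured 3.17, 4.32 and 3.24 FPKM against 4.31, 5.21 and 5.79 FPKM. That mean was 0.701 times control, but siGSK3b 2 reached the level of control 1, so the groups overlapped. The Kcns1 locus is a 790 bp stretch of chromosome 2 from 163989694 to 163990483 on NCBIM37, 10.5% of the gene length.

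Kcng3, another silent subunit, was higher in every ketamine library, with 5.67, 4.89 and 4.38 FPKM against 4.11, 3.62 and 4.12 FPKM. The mean was 1.26 times control and the limma adjusted p was 0.847. Kcng4 had 1.91, 1.87 and 1.68 FPKM after L803mts against 1.45, 0.998 and 1.54 FPKM, 1.36 times control. After siGSK3b it had 1.14, 1.11 and 0.729 FPKM against 1.54, 0.994 and 1.58 FPKM, 0.724 times control and overlapping. For Kcnv1 and Kcnf1, the 2 most abundant silent genes in the siGSK3b table, the groups overlapped in all 3 tables. After siGSK3b Kcnv1 had 20.95, 20.3 and 24.6 FPKM against 20.7, 23.0 and 22.6 FPKM, and Kcnf1 had 12.9, 14.0 and 11.5 FPKM against 13.2, 12.2 and 14.3 FPKM. After L803mts Kcnv1 was 0.817 times control, with 15.0, 20.2 and 13.7 FPKM against 18.8, 20.7 and 20.4 FPKM.

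At the locus kept per gene, no gene of the KCNQ family, which carries the M current and so restrains repetitive firing, separated the groups in any table. Kcnq3 had 30.6, 32.7 and 28.9 FPKM after siGSK3b against 26.1, 28.0 and 32.2 FPKM. After ketamine it had 23.9, 24.6 and 28.0 FPKM against 24.3, 26.1 and 30.4 FPKM, and both comparisons overlapped. Of the 4 loci named Kcnq3 in the siGSK3b table, 2 that were not kept separated upward.

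The EAG, ERG and ELK genes (Kcnh), relatives of the ether-a-go-go channel of the fly, numbered 6 in each table. All 6 means lay below control after siGSK3b, where 48.2% of all tested loci did. Their median difference was -0.15 on the log2(FPKM + 1) scale, and Kcnh2 and Kcnh5 separated downward (background 4.84%). Kcnh2 is an ERG channel, and mutations of the human gene cause long QT syndrome of the heart. It had 3.15, 4.41 and 5.34 FPKM after siGSK3b against 5.95, 6.42 and 5.35 FPKM. The third treated library all but equalled the third control. After L803mts it had 20.6, 19.8 and 16.9 FPKM against 7.35, 15.3 and 9.23 FPKM, 1.8 times control, with a limma difference of 0.84 ± 0.233 and an adjusted p of 0.757. The Kcnh2 loci differ: 3061 bp in the siGSK3b table, 5879 bp in the L803mts table and 828 bp in the ketamine table, and none overlaps another. After ketamine the values were 1.27, 0.880 and 0.843 FPKM against 0.954, 0.407 and 0.683 FPKM and overlapped.

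Within the same role, Kcnh1, an EAG channel, had 17.1, 14.0 and 16.2 FPKM after ketamine against 23.2, 18.8 and 17.9 FPKM. The groups did not overlap, and the mean was 0.79 times control with a limma adjusted p of 0.803. Kcnh5, a second EAG channel, had 10.5, 10.5 and 11.7 FPKM after siGSK3b against 13.6, 12.1 and 12.1 FPKM. Kcnh7, an ERG gene, overlapped in all 3 comparisons, with means of 18.2 ± 2.77 FPKM in controls and 18.1 ± 1.79 FPKM after siGSK3b (SD, n = 3). Kcnh8, an ELK gene, overlapped as well: the ketamine libraries had 0.818, 0.634 and 0.534 FPKM and the controls 0.859, 0.419 and 1.81 FPKM.

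Among the calcium- and sodium-activated channels, Kcnma1 overlapped between groups in all 3 tables at the locus kept, while 1 of its 7 loci in the siGSK3b table separated upward. The kept locus had 126, 125 and 125 FPKM after siGSK3b against 123, 132 and 135 FPKM, and 95.4, 91.2 and 90.7 FPKM after ketamine against 85.2, 105 and 107 FPKM. Kcnn2, a small-conductance calcium-activated channel that shapes the after-hyperpolarisation of pyramidal cells, lay higher in the means of all 3 treatments. After L803mts it had 2.78, 3.07 and 3.87 FPKM against 1.69, 2.50 and 2.10 FPKM, and after siGSK3b 2.59, 3.61 and 2.57 FPKM against 1.69, 2.49 and 2.08 FPKM. Both comparisons separated without overlap, at 1.55 and 1.4 times control, with limma adjusted p of 0.757 and 0.891. After ketamine the values of 2.04, 2.60 and 3.13 FPKM overlapped the controls of 1.56, 2.29 and 1.93 FPKM. All 3 comparisons use the same control libraries, and the Kcnn2 locus of 1136 to 1215 bp is under 0.3% of the gene.

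Kcnt1, a sodium-activated channel, had 21.7, 17.5 and 17.9 FPKM after L803mts against 14.6, 12.8 and 11.1 FPKM. All treated libraries lay above all controls, at 1.49 times the mean, with a limma difference of 0.54 ± 0.146 and an adjusted p of 0.757, and the log2 ratio stayed between 0.46 and 0.67 without any 1 library. The locus runs from 25733528 to 25774936 on chromosome 2 (NCBIM37), 75.9% of the gene length. After ketamine Kcnt1 had 16.9, 17.1 and 13.0 FPKM against 16.6, 16.6 and 12.9 FPKM, which overlap. Kcnn1, a small-conductance channel, had 16.2, 23.2 and 20.3 FPKM after siGSK3b against 15.3, 18.5 and 16.7 FPKM. In the ketamine table a different Kcnn1 locus of 674 bp had 1.44, 1.30 and 1.75 FPKM against 1.09, 0.818 and 0.933 FPKM, 1.58 times control without overlap. Kcnu1, known as a sperm channel, had 2.21, 1.58 and 2.21 FPKM after siGSK3b against 2.64, 2.30 and 2.26 FPKM.

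Among two-pore genes, Kcnk2 was the member that separated after ketamine. Kcnk2 encodes a leak channel opened by membrane stretch and by arachidonic acid and closed through several neurotransmitter receptors. Its locus in the ketamine table spans the annotated gene length, from 191031920 to 191226841 on chromosome 1 (NCBIM37). It measured 26.0, 34.8 and 31.0 FPKM after ketamine against 45.0, 45.8 and 50.7 FPKM in the controls. Every ketamine library lay below every control, and the mean was 0.649 times control. The limma difference was -0.62 ± 0.118 with an adjusted p of 0.488, the lowest among the members of this comparison, and the log2 ratio lay between -0.73 and -0.52 without any 1 library. The authors' deposited table gave Kcnk2 an unadjusted p of 0.236. After siGSK3b Kcnk2 had 34.3, 42.4 and 33.5 FPKM against 38.9, 39.3 and 43.1 FPKM. After L803mts it had 49.6, 30.8 and 58.1 FPKM against 41.4, 42.9 and 46.6 FPKM, and both comparisons overlapped. The Kcnk2 locus was shorter in those 2 tables, 136284 and 136202 bp against 194922 bp in the ketamine table. The 3 comparisons therefore do not cover the same stretch.

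Of the other two-pore genes, Kcnk1 overlapped in all 3 comparisons, with 70.8, 75.9 and 75.5 FPKM after siGSK3b and 78.9, 82.6 and 73.5 FPKM after ketamine. Kcnk10, a close relative of Kcnk2, had 14.2, 14.4 and 16.3 FPKM after L803mts against 10.9, 10.2 and 13.3 FPKM, 1.3 times control. Kcnk6 had 1.00, 0.933 and 0.949 FPKM after L803mts against 0.678, 0.293 and 0.207 FPKM. That is 2.45 times control at a level under or near 1 FPKM, with a limma adjusted p of 0.757. In the authors' deposited table the Kcnk6 FDR of 0.470 was the smallest of any member in that comparison. Markers of striatal projection neurons, 8 of 10 measured and none at 0, were also higher after L803mts, summing to 61.4 to 70.7 FPKM in the controls and 79.3 to 158 FPKM in the treated libraries. The means of all 7 measured markers of thalamus and habenula, from a list of 8, lay above control as well, with a median log2(FPKM + 1) difference of 0.44. Their sums of 63.1 to 112 FPKM in the controls and 76.4 to 129 FPKM after L803mts overlapped, 1 of the 7 was called higher in the authors' deposited table, and none was at 0. The part of either list in the L803mts values was not tested.

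**Figure D3:**
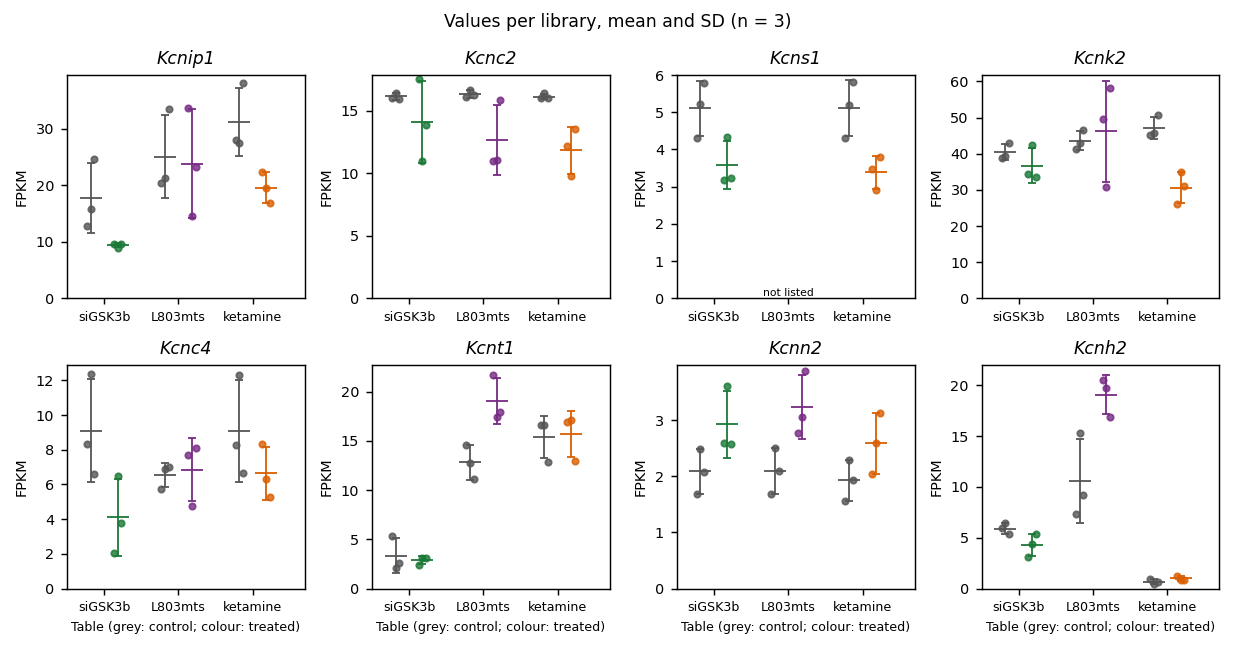
FPKM per library for 8 members in each table, with grey points for the 3 controls, coloured points for the 3 treated libraries, and bars for mean and SD (n = 3). Kcnk2 and Kcns1 lie below their controls after ketamine, Kcnip1 after siGSK3b and ketamine, and Kcnt1 lies above its controls after L803mts; Kcnh2 was measured over a different locus in each table.

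**Figure D4:**
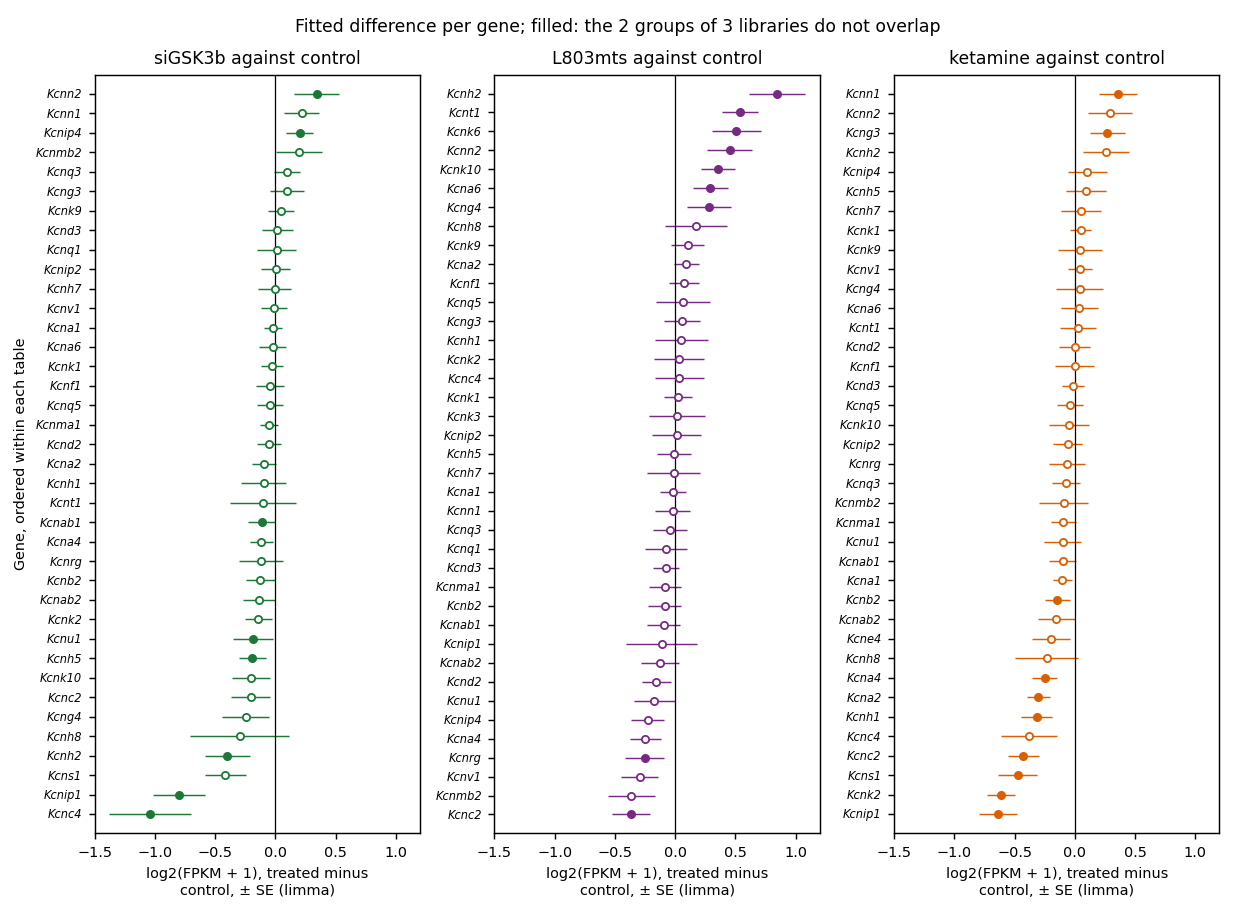
Fitted difference in log2(FPKM + 1), treated minus control, with its standard error, for the members named in the text, ordered within the table; filled points are members whose libraries do not overlap between groups. The values run from -1.04 for Kcnc4 after siGSK3b to 0.84 for Kcnh2 after L803mts, and no member passed the adjusted threshold.

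Set side by side, 24 members separated in at least 1 table and 0 in all 3. Among the 51 members listed in all 3 tables the count was 22, or 43.1%, beside 28.9% of the 11566 genes treated the same way, of which 0.493% separated in 1 direction in all 3. Kcnn2 was the 1 member higher without overlap in 2 tables, Kcnip1 and Kcnc2 were the 2 members lower in 2 tables, and Kcnh2 was the 1 member that separated in opposite directions. The background over the same genes was 1.76% for higher in 2 tables, 2.17% for lower in 2 tables and 0.977% for opposite directions. Means lay above control in all 3 tables for Kcng3, Kcnk9 and Kcnn2, and below control in all 3 for 13 members, among them Kcnip1, Kcnc2, Kcna4 and Kcnma1. Because the 3 tables share their controls, a high or low control library moves all 3 comparisons together, and these counts are a description only.

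Upstream sequence is shown for the members lower without overlap in 2 tables, Kcnip1 and Kcnc2. It is also shown for Kcns1, whose unadjusted p was under 0.05 in both of the authors' deposited tables that list it. The sequence of Kcnn2, higher without overlap in 2 tables, is not reported here. The bases lie directly upstream of the outermost RefSeq start, on build GRCm38.p6 and on the gene's own strand, 5′ to 3′, up to 250 bases. Capitals mark matches on either strand to 3 motifs that do not contain one another: the cyclic AMP response element core TGACG, the TCF/LEF core CTTTGA and the GC box GGGCGG.
Kcnip1 at chr11:33993349-33993443, minus strand: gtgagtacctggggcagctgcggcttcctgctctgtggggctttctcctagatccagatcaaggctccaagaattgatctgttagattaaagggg
Kcnc2 at chr10:112269767-112269897, plus strand: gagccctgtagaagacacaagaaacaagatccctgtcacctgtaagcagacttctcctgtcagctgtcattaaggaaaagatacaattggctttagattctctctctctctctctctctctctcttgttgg
Kcns1 at chr2:164171114-164171363, minus strand: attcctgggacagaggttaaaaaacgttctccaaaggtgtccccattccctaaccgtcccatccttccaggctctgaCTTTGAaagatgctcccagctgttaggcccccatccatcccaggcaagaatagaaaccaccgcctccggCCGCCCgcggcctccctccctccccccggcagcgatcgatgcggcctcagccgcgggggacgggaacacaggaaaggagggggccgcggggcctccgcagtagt

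The Kcns1 stretch holds 1 TCF/LEF core and 1 GC box, while the shorter Kcnip1 and Kcnc2 stretches hold none of the 3 motifs in these windows. Over the 39 of 57 members with an entry, the 250 bases before the start held TGACG in 25.6%, the core CTTTGA in 10.3% and the GC box in 51.3%. The same windows of all 27025 promoters held them in 17.9%, 14.1% and 32.9%. The median GC content was 61.2% for members and 52% for all promoters, which bears on any GC-rich motif. A match describes letters and is no evidence of a binding site.

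Proteins that assemble with, anchor or regulate these channels but carry other names were read from a list of 23 genes, of which 20 were measured in each table. None of the 20 passed the FDR limit in the authors' deposited tables for siGSK3b and ketamine. The largest partner change after siGSK3b was that of Lrrc55, an auxiliary subunit of the Kcnma1 channel, with 0.436, 0.856 and 1.01 FPKM against 2.26, 1.57 and 1.27 FPKM. Its groups did not overlap, the authors' deposited table gave an unadjusted p of 0.00075 and an FDR of 0.102, and limma gave an adjusted p of 0.848. In all, 2 of the 20 partners separated upward and 1 downward after siGSK3b, beside 5.72% and 4.84% of all tested loci. After L803mts 1 separated upward and 1 downward (5.86% and 6.67%), and after ketamine 0 did (5.28% and 6.19%). For L803mts the authors' deposited table called 1 of the 20, where 0.65% of all tested loci were called. It was Dlg4, a synaptic scaffold that clusters Kcna channels, with an FDR of 0.0199. Dlg4 measured 55.6, 46.4 and 95.4 FPKM after L803mts against 38.9, 43.8 and 55.4 FPKM, so the groups overlapped and L803mts 3 was highest, and limma gave an adjusted p of 0.757. The partner of highest control level in the siGSK3b table was Calm2, a gene for calmodulin, the calcium sensor of the Kcnn channels. It had 3576, 3305 and 3690 FPKM after siGSK3b against 3127, 3054 and 3398 FPKM, and the groups overlapped. Of the related Hcn cation channels, 3, 2 and 3 were measured and 0 were called in the authors' deposited tables. Hcn2 had 18.7, 19.5 and 17.1 FPKM after siGSK3b against 22.5, 24.7 and 30.0 FPKM, without overlap and with a limma adjusted p of 0.754.

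What a gene's value covers depended on the table. Loci came from the authors' own assembly, so a gene's longest locus could be a fragment, about the whole gene or a stretch longer than the gene. A locus of at least 90% of the annotated gene length was held by 23, 25 and 28 members, and 9, 9 and 10 had one under 10%. The former include loci longer than the gene, such as Kcnk1 in the L803mts table at 1125% and Kcna6 in the siGSK3b table at 197%. Loci of 1 gene could share 1 length, as all 7 named Kcnma1 in the siGSK3b table did, with means from 6.47 to 128 FPKM. Of the 51 genes in all 3 tables, 24 had loci that overlapped by at least 90% in every pair of tables and 11 had no overlap in at least 1 pair. Control means, from the same 3 libraries, differed over 1.5-fold between tables for 19 of the 51, with a median ratio of 1.24. The largest ratio was 18.1, for Kcnq5 of the M current family, with control means of 15.0, 1.92 and 34.7 FPKM in the siGSK3b, L803mts and ketamine tables. For 7 of the 19 the loci overlapped by at least 90%, as for Kcnab1 with 11.4, 44.6 and 12.1 FPKM. Levels are therefore compared only within a table, and no exon or intron was assigned, since no annotation of NCBIM37 was used here.

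**Figure D5:**
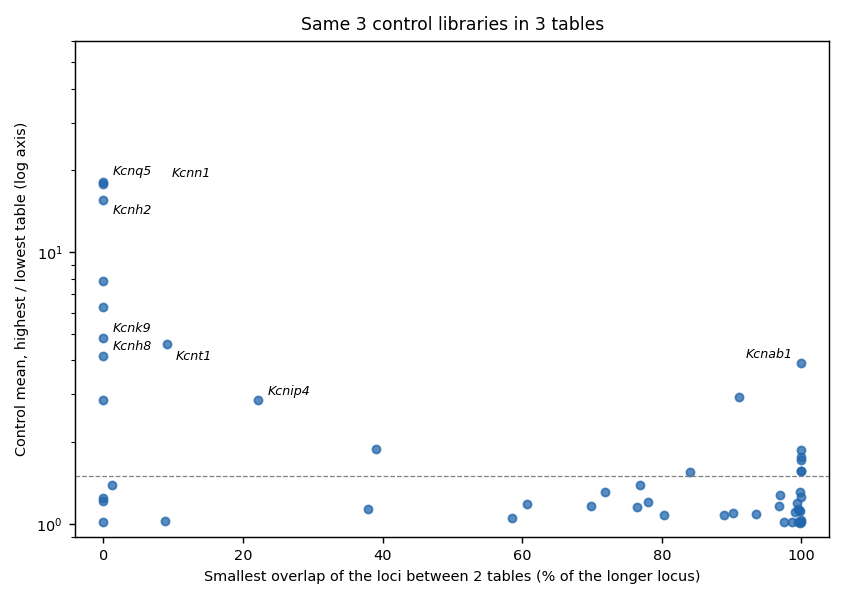
Ratio of the highest to the lowest control mean over the 3 tables (log axis) against the smallest overlap of the gene's loci between tables, in percent of the longer locus, for the 51 genes listed in all 3; the dashed line marks 1.5-fold. Kcnq5 has the largest ratio at 18.1, with no overlap of its loci in a pair of tables, and Kcnab1 reaches 3.90 at nearly full overlap.

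Several members had more than 1 locus, namely 8, 8 and 9 genes. All 4 loci named Kcnq3 had higher means after siGSK3b, with log2 ratios from 0.10 to 0.37, and 2 of the 4 separated without overlap. All 11 Kcnip4 loci had lower means after L803mts, with log2 ratios from -0.37 to -0.06, and 2 separated. Loci of 1 gene are not replicates of each other. For Kcnh7, split into 35 loci in the siGSK3b table, 12 had higher and 23 lower means after siGSK3b.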

How the data were processed

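The authors deposited 3 tables, each with an FPKM value per library and locus and, per the file headers, the log2 fold change of treatment over control with its p-value and FDR (q-value). TopHat2 2.0.9, then Cufflinks and Cuffdiff of unstated version, are named in the submitters' processing notes. The largest chromosome 7 coordinate, 152125580, lies beyond the last GRCm38 gene end there, 145324086, so locus coordinates are on NCBIM37, and only gene names and lengths were taken from GENCODE M21 and promoters from RefSeq (GRCm38.p6). FPKM values here are model estimates that keep no read counts, so neither depth nor an interval could be derived. FPKM was normalised by the authors within each table, and tests stay within a table.

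Groups and replicate numbers came from the library titles; the treatment protocol in the labels spells the peptide L808mts. Loci tested by the authors (p below 1) numbered 16351, 17074 and 17545. The authors' deposited FDR at a limit of 0.05 gave the main calls, and limma 3.58.1 with intensity trend on log2(FPKM + 1) in R 4.3.3, with Benjamini-Hochberg adjustment over all tested loci, gave a second test, which was tested on simulated data. Log2 ratios are of library means; the deposited log2 fold change of every member matched them within 0.001. Ties for the longest locus were broken by protein-coding type and then by mean FPKM, and a joint gene name counts under its first symbol.

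Members and lists were chosen with earlier results of these data known. Named were, per table, the 5 largest changes in each direction whose higher group averaged at least 1 FPKM, the 2 genes of highest control level per role in the siGSK3b table, genes separated in opposite directions in 2 tables and the other genes whose libraries did not overlap. Alternatives were an FDR limit of 0.1, a pseudocount of 0.1, a minimum mean of 1 FPKM, no trend, recentred libraries, another locus per gene, a replicate block and each library left out. Some members that these rules select are not reported here.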

Additional observations from a re-analysis of the deposited data

Results flagged for a closer look

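The loci kept for Kcnh2 separated in opposite directions in 2 comparisons that share their control libraries. Every siGSK3b library lay below its controls, with a log2 ratio of -0.46, and every L803mts library lay above its controls, with a log2 ratio of 0.85. The siGSK3b separation was narrow, with 5.341 FPKM in the highest treated library and 5.345 FPKM in the lowest control. Neither change was called, with limma adjusted p of 0.866 and 0.757. The difference between the 2 treatments was not tested. The Kcnh2 loci of the 2 tables do not overlap, with 3061 bp in one and 5879 bp in the other, so the 2 values do not measure the same stretch of the gene.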

How the results depend on the processing

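The count of 0 members called stood for each of the 3 comparisons under each alternative run, for the authors' deposited FDR and for limma, including a limit of 0.1 on the deposited FDR, and limma's unadjusted p was under 0.05 for 3, 6 and 7 members with all libraries and for 1 to 5, 3 to 6 and 4 to 8 with 1 library left out. The member medians moved by less than the spread between libraries. With a replicate block limma also called 0 members in each comparison, with 2, 6 and 7 members at an unadjusted p under 0.05. Correlations between control and treated libraries ran from -0.16 to 0.19 for the same number and from -0.26 to 0.19 for different numbers. With 3 libraries per group, these values cannot decide whether the numbers pair the libraries. Counts of separated members, an addition chosen after seeing the data, moved more. Without 1 library they ran from 2 to 4 (higher) and 7 to 16 (lower) for siGSK3b, from 8 to 12 and 2 to 8 for L803mts, and from 3 to 4 and 8 to 13 for ketamine. Over all tested loci the shares were 9.95% to 12.4% (higher) and 8.77% to 10.9% (lower), 9.18% to 12.5% and 10.6% to 16.0%, and 7.68% to 12.8% and 9.39% to 13.4%. With the locus of highest FPKM per gene, the higher siGSK3b count was 1 in place of 2. Of 279 alternative values of named genes with a change of at least 1.2-fold, 7 changed sign, among them Kcnh8 after siGSK3b (0.12 without control 2, 0.02 without siGSK3b 2 and 0.03 without siGSK3b 3) and Kcnh8 after ketamine (0.05 without control 3). The read depth is unknown, so which low values are limited by counting cannot be told.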
